A study of Mus musculus with 17 samples.

Results

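The genes described here encode the subcortical maternal complex of the mouse oocyte and maternal factors that act beside it. They are the 10 listed genes Nlrp5, Ooep, Tle6, Zbed3, Padi6, Nlrp2, Nlrp14, Nlrp4f, Npm2 and Dppa5a, found by symbol among the 24491 gene symbols counted in 7 libraries of oocyte RNA. All 10 passed the filter on low counts, as did 10083 genes in all. The oocytes came from wild-type CD1 mice, an outbred strain, and were mature eggs in second meiotic metaphase, with about 10 in each library. The first group was from females of 48 weeks given rapamycin, an inhibitor of the mTOR kinase, from week 8 onward at a dose of 2 mg/kg, over 40 weeks (rapamycin 1 to 3, n = 3 libraries). The second was from untreated females of 48 weeks (n = 2, aged 1 and 2), and the third from females of 4 weeks (n = 2, young 1 and 2). Ovulation was induced in every group with the gonadotropins PMSG and hCG, at 10 IU of each in both 48-week groups and at 5 IU of each in young females. Age and hormone dose therefore cannot be told apart. The series also holds 10 libraries from the hippocampus of adult offspring, used below to compare tissues.

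The subcortical maternal complex is a protein assembly that collects beneath the oocyte membrane and is passed to the embryo. Nlrp5 (also called MATER), Ooep (FLOPED) and Tle6 are core subunits, and loss of any of them in the mother stops mouse embryos in early cleavage. Zbed3 binds the complex, and Padi6, a protein of the arginine deiminase family, is needed for the fibrous cytoplasmic lattices of the oocyte. Because a metaphase oocyte makes almost no new RNA, the amount of a maternal transcript is set by what was stored during growth and by its decay during maturation.

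Gene counts per oocyte library summed to between 3912163 and 8334873, and 8688 to 10350 genes reached 10 counts. The library rapamycin 1 stood apart from the other 6. It differed from rapamycin 2 and rapamycin 3 by a chi-square per degree of freedom of 139 and 169 over genes, while the pairs within groups otherwise gave 16.3 to 24.7. The summed level of 14 oocyte markers was 4767 CPM there and 16556 to 21695 CPM in the others. Abundant genes weigh most in this sum, such as Gdf9, at 301 CPM in rapamycin 1 and 4914 to 9208 CPM in the others. Not all markers were low: Dazl, at 1707 CPM, and Fbxo43, at 581 CPM, were highest in rapamycin 1. The share of counts on Rn45s, the ribosomal RNA precursor, was 7.59% there and 0.885% to 3.11% elsewhere. CPM are counts set to a common library size, scaled with the TMM method of edgeR. Rapamycin 1 was the lowest of the 7 libraries for 8 of the 10 genes and the highest for Zbed3 and Nlrp4f. Over all genes tested it was lowest for 37.3% and highest for 29.1%. Fold changes of the 10 genes that compare groups are given with and without it.

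Markers of the cells that surround an oocyte and of blood were also read. Of 16 cumulus and granulosa cell markers, 12 lay above 3 counts in rapamycin 1 and 5 to 10 in the other libraries. Their summed level was 269 CPM in rapamycin 1, with 928 and 1071 CPM in the other rapamycin libraries, 964 and 1095 CPM in aged libraries and 1142 and 1383 CPM in young ones. Outside rapamycin 1 most of this was Serpine2, at 23.1 CPM in rapamycin 1 and 870.2 to 1276 CPM elsewhere. Without Serpine2, a choice made after seeing the data, the other 15 markers summed to 246 CPM in rapamycin 1 and 57.3 to 107 CPM in the other 6 libraries, and 10 of the 15 were highest in rapamycin 1. Inha, an inhibin subunit of granulosa cells, had 76.9 CPM in rapamycin 1 and no more than 4.03 CPM in the others. The steroid enzyme gene Hsd3b1 had 73.5 CPM in rapamycin 1 against a maximum of 6.52 CPM in the others, and the gap junction gene Gja1 had 31.4 CPM against a maximum of 2.39 CPM. Foxl2, a granulosa transcription factor, had 1.61 CPM in rapamycin 1 and was at 0 in the other 6. The aromatase gene Cyp19a1 ran the other way, at 10.99 CPM in rapamycin 1 and 24.5 to 80.2 CPM in the others. Amh was at 0 in 6 of the 7 libraries and Fshr in 5, rapamycin 1 among them in both cases. Of 10 immune and blood cell markers, 1 to 3 lay above 3 counts, and their sum was 2.83 to 8.85 CPM. The part that other cells played in the values of the 10 genes was not tested. In such bulk samples, fewer cells of a type and less RNA per cell cannot be told apart.

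Per kilobase of the longest coding transcript, Zbed3 was by far the most abundant of the 10 genes. Averaged over the 6 libraries without rapamycin 1, the level of Zbed3 was 13494 ± 3442 CPM per kilobase (SD, n = 6). Padi6 followed at 629 ± 239, Nlrp4f at 595 ± 200.5, Npm2 at 494 ± 165, Nlrp14 at 465 ± 70.7 and Ooep at 274 ± 92.7 CPM per kilobase. Tle6 had 119 ± 32.7, Nlrp5 99.2 ± 23.0, Dppa5a 50.1 ± 40.2 and Nlrp2 29.4 ± 4.29 CPM per kilobase. Among neighbours in this order, only Zbed3 and Padi6, and Ooep and Tle6, had ranges over these 6 libraries that did not overlap. This order holds for the mean over the 6 libraries and shifted between groups. After Zbed3, the highest mean was that of Nlrp4f in rapamycin 2 and 3 (679 CPM per kilobase), Padi6 in aged oocytes (926) and Npm2 in young oocytes (485). Dppa5a was below Nlrp2 in aged oocytes, at 16.6 and 34.5 CPM per kilobase, and above it in young oocytes, at 100.3 and 27.7 CPM per kilobase. Of the core subunits, Ooep had the highest mean level in each group, while Nlrp5 and Tle6 had 124 and 123 CPM per kilobase in young oocytes.

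**Figure D1:**
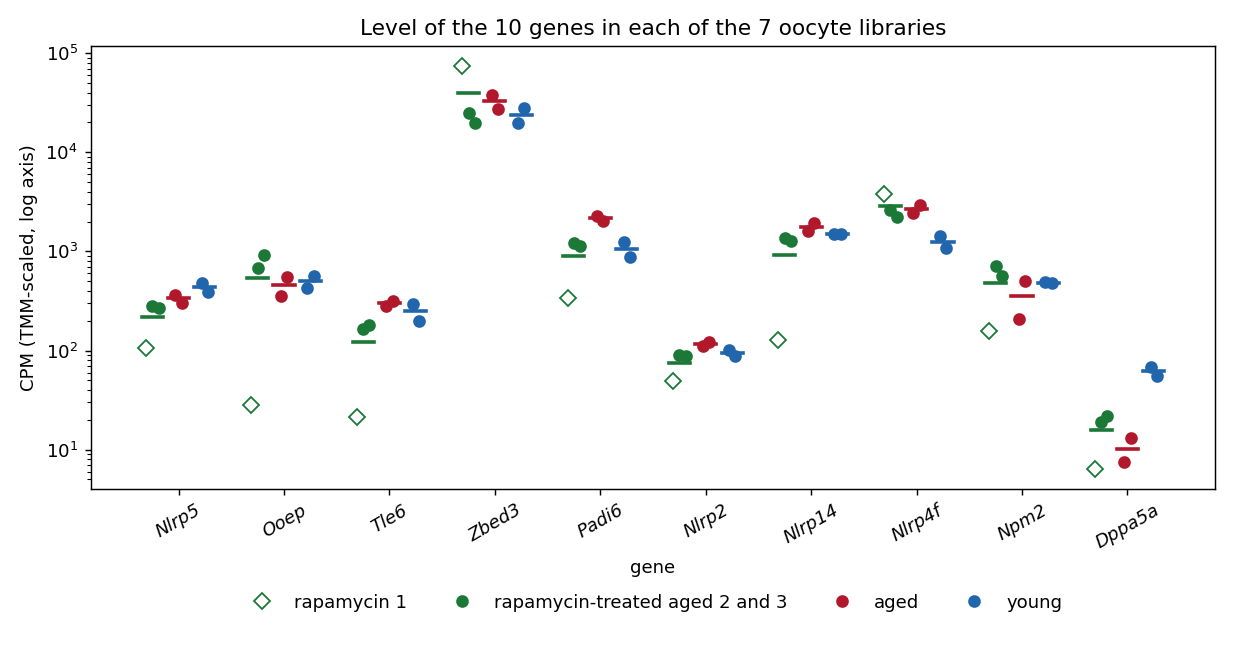
Level of each of the 10 genes in each oocyte library, in CPM on a log axis, with rapamycin-treated aged, aged and young oocytes from left to right and a bar at the mean of each group. The open diamond is rapamycin 1, which lies below all other libraries for 8 genes and above them for Zbed3 and Nlrp4f.

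The first question was how the 10 genes differed between groups when all 7 libraries were fitted together. No member was called in any of the 3 comparisons, where called means an adjusted p below 0.05 in the quasi-likelihood F-test of edgeR over all genes tested. Of all genes, 0.268% were called in aged against young oocytes, 0% in rapamycin against aged oocytes and 0.426% in rapamycin against young oocytes. The unadjusted p of members was below 0.05 for Nlrp4f and Dppa5a in aged against young oocytes, for Padi6 in rapamycin against aged oocytes, and for Nlrp4f and Dppa5a in rapamycin against young oocytes. In rapamycin against aged oocytes, where 0 genes were called by edgeR, 603 genes had an unadjusted p below 0.05. DESeq2 called 11 genes there and limma with quality weights 3, no member among them. The median log2 fold change of the 10 genes was 0.26 in aged against young oocytes, beside −0.01 for all genes. In rapamycin against aged oocytes it was −0.26 beside 0.01, and in rapamycin against young oocytes −0.29 beside 0.02.

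Without rapamycin 1 the biological coefficient of variation was 28.1%, against 49.5% with it, and members were called. In aged against young oocytes Padi6 and Nlrp4f were higher and Dppa5a lower, that is 3 of the 10 genes, where 11.4% of all 10220 genes tested were called. In rapamycin against young oocytes Nlrp4f was higher and Dppa5a lower, where 2.97% of genes were called. In rapamycin against aged oocytes 0 of the 10 genes were called by edgeR, 6 had an unadjusted p below 0.05, and 0.0587% of all genes were called. DESeq2 without rapamycin 1 called 170 genes there, Padi6 among them. The 3 comparisons share libraries, so their calls are not independent of each other.

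Genes whose groups were separate in every library were counted beside the same count over all genes. The groups did not overlap for 6 of the 10 genes in aged against young oocytes, beside 61.3% of all genes. With all libraries, 5 of the 10 genes did not overlap between rapamycin and aged oocytes, beside 25.6% of genes, and 5 between rapamycin and young oocytes, beside 33.4%. Without rapamycin 1 these became 9 of the 10 genes beside 45.8%, and 7 beside 50.6%. In aged against young oocytes the share was near that of all genes, and in both rapamycin comparisons it was above it. Among 10 genes this excess is a few genes, and it was not tested. With all libraries, rapamycin 1 was the lowest library for 8 of the 10 genes. Leaving rapamycin 1 out was a choice made with earlier results of these data known.

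**Figure D2:**
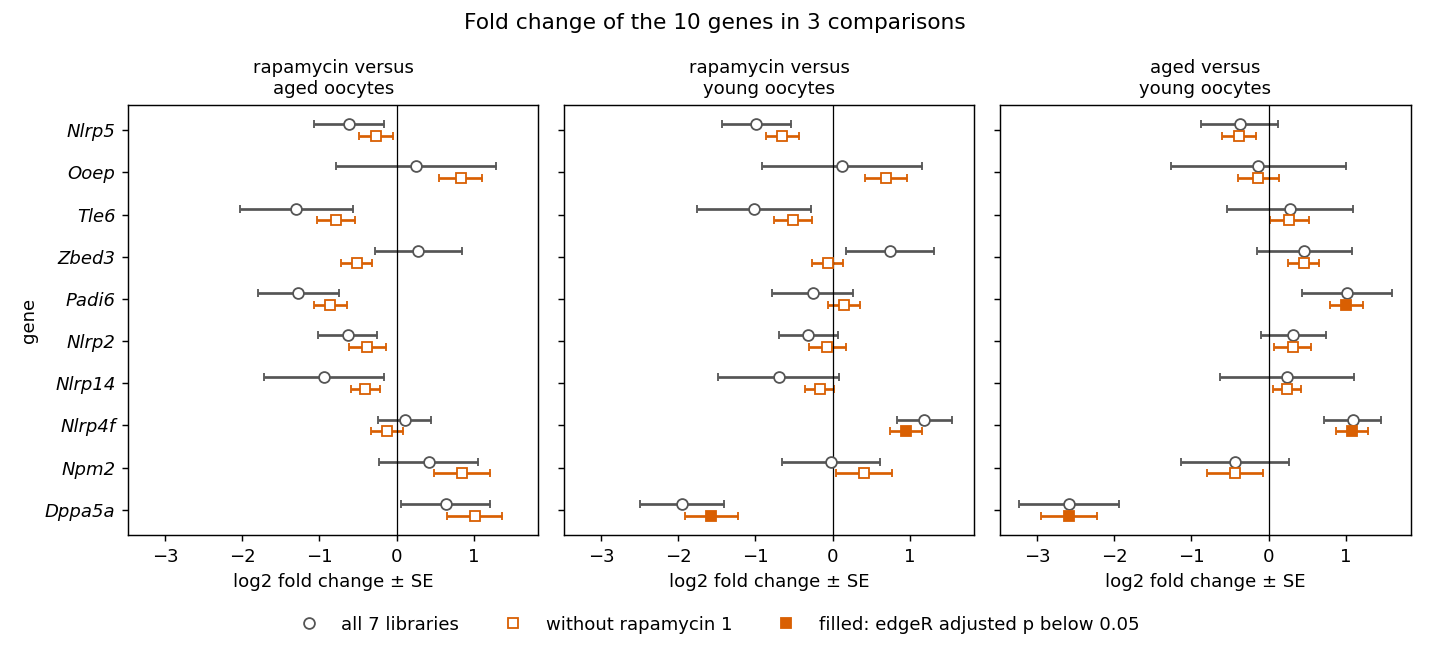
Log2 fold change with its standard error for each of the 10 genes in rapamycin against aged, rapamycin against young and aged against young oocytes, from left to right. Grey circles are the fit of all 7 libraries, orange squares the fit without rapamycin 1, and filled markers are called. The filled markers are Nlrp4f and Dppa5a in both comparisons with young oocytes, and Padi6 in aged against young oocytes.

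Among the core subunits, Nlrp5 had 106, 279 and 270.3 CPM in rapamycin oocytes, 366 and 303 CPM in aged oocytes and 481 and 387 CPM in young oocytes. Both young libraries lay above both aged ones, and these above all rapamycin libraries. Without rapamycin 1 its log2 fold change was −0.38 ± 0.21 in aged against young oocytes (SE, edgeR adjusted p = 0.252). Rapamycin against young oocytes gave −0.65 ± 0.22 (edgeR adjusted p = 0.170), and rapamycin against aged oocytes −0.27 ± 0.22 (edgeR adjusted p = 0.571). With all libraries the values were −0.38 ± 0.50 in aged against young, −0.99 ± 0.45 in rapamycin against young and −0.62 ± 0.45 in rapamycin against aged oocytes. None of these differences was called. Nlrp5 lies on chromosome 7 from 23385889 to 23441922 of GRCm38, the assembly also named mm10. Its pseudogene Nlrp5-ps shares sequence with it, and 94.9% of the 75-base words in the Nlrp5 transcript occur in no other gene.

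Ooep had 28.2, 687 and 916 CPM in rapamycin oocytes, 357 and 553 CPM in aged oocytes and 432 and 566 CPM in young oocytes. Rapamycin 1 had 0.0351 times the mean of the other rapamycin libraries, the largest drop among the 10 genes. The other rapamycin libraries were above every aged and young library, while aged and young libraries overlapped. Without rapamycin 1 the log2 fold change was 0.83 ± 0.27 against aged oocytes (edgeR adjusted p = 0.230) and 0.70 ± 0.27 against young oocytes (edgeR adjusted p = 0.241). Aged against young oocytes gave −0.13 ± 0.27 (edgeR adjusted p = 0.775). With all libraries the values were 0.26 ± 1.04 against aged oocytes, 0.12 ± 1.03 against young oocytes and −0.13 ± 1.13 in aged against young oocytes (SE).

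Tle6, a corepressor-like protein and the partner of Nlrp5 and Ooep in the core, had 21.2, 164 and 179.7 CPM in rapamycin oocytes, 283 and 316 CPM in aged oocytes and 296 and 200.1 CPM in young oocytes. All rapamycin libraries lay below all others, and aged and young libraries overlapped. The log2 fold change in rapamycin against aged oocytes was −1.30 ± 0.74 with all libraries (edgeR adjusted p = 0.730) and −0.78 ± 0.25 without rapamycin 1 (edgeR adjusted p = 0.226). Rapamycin against young oocytes gave −1.02 ± 0.74 with all libraries and −0.51 ± 0.25 without rapamycin 1, and aged against young oocytes 0.27 ± 0.82 and 0.27 ± 0.25, none of them called. Ooep and Tle6, whose products bind each other, thus stood on opposite sides of the aged libraries in rapamycin 2 and 3, with neither difference called. The ratio of Tle6 to Ooep counts was 0.752, 0.239 and 0.196 in rapamycin oocytes, 0.794 and 0.571 in aged oocytes and 0.685 and 0.354 in young oocytes. Ooep lies on chromosome 9 from 78376109 to 78378725 and Tle6 on chromosome 10 from 81590904 to 81601073 of GRCm38.

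Zbed3, a zinc finger protein that joins the complex, had 74159.6, 24894 and 19945 CPM in rapamycin oocytes, 37885 and 27367 CPM in aged oocytes and 19639 and 27742 CPM in young oocytes. It ranked first or second among all genes in each of the 7 libraries and took 2.00% to 3.60% of the counts in 6 libraries and 6.30% in rapamycin 1. Aged and young libraries overlapped. Its log2 fold change in aged against young oocytes was 0.45 ± 0.21 without rapamycin 1 (edgeR adjusted p = 0.170) and 0.46 ± 0.61 with all libraries (edgeR adjusted p = 0.804). In rapamycin against aged oocytes the value was 0.28 ± 0.56 with all libraries (edgeR adjusted p = 0.897) and −0.52 ± 0.21 without rapamycin 1 (edgeR adjusted p = 0.275), so its direction turned on 1 library. Rapamycin against young oocytes likewise gave 0.74 ± 0.57 with all libraries and −0.07 ± 0.21 without rapamycin 1. Zbed3 lies on chromosome 13 from 95323612 to 95337841 of GRCm38, and the small nucleolar RNA genes Snora47 and Gm22661 lie within it on the same strand. Whether their reads were counted with Zbed3 was not tested.

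Padi6 was higher in both aged libraries than in any other library. It had 337, 1216 and 1131 CPM in rapamycin oocytes, 2283 and 2038 CPM in aged oocytes and 1258 and 879.7 CPM in young oocytes. Rapamycin 2 and 3 lay within the range of the young libraries. Aged oocytes averaged 2160.2 ± 173 CPM and young oocytes 1069 ± 268 CPM (SD, n = 2 each), a ratio of 2.02. Without rapamycin 1, Padi6 rose in aged oocytes by 1.01 ± 0.21 on the log2 scale (SE, edgeR adjusted p = 0.0210). With all libraries the fold change was 1.01 ± 0.58 (edgeR adjusted p = 0.531).

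For Padi6, rapamycin against aged oocytes gave −0.86 ± 0.21 without rapamycin 1 (edgeR adjusted p = 0.226) and −1.27 ± 0.52 with it (edgeR adjusted p = 0.730). Rapamycin against young oocytes gave 0.15 ± 0.21 without rapamycin 1 (edgeR adjusted p = 0.791) and −0.26 ± 0.52 with it (edgeR adjusted p = 0.892). Within single libraries, the ratio of Padi6 to Nlrp5 counts was 3.18, 4.37 and 4.18 in rapamycin oocytes, 6.23 and 6.71 in aged oocytes and 2.61 and 2.27 in young oocytes. This ratio needs no scaling between libraries. Its 3 groups did not overlap, and rapamycin oocytes, rapamycin 1 included, lay between aged and young ones. Nlrp5 itself also differed in level between the groups, so the ratio does not describe Padi6 alone. Several such ratios were read, and how often other gene pairs separate the groups was not tested. Padi6 lies on chromosome 4 from 140727355 to 140742643 of GRCm38, and no other gene shares its 75-base words.

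**Figure D3:**
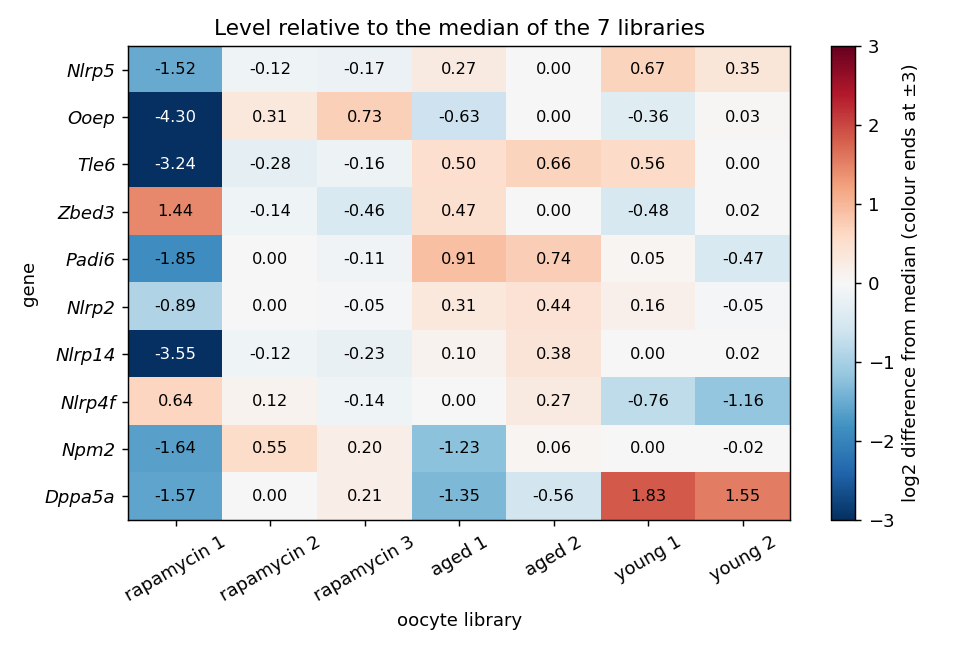
Difference of each gene's log2 CPM from its median over the 7 libraries, with rapamycin, aged and young libraries from left to right (red is above the median and blue below it). Rapamycin 1 is at −4.30 for Ooep and at 1.44 for Zbed3. Outside rapamycin 1 the deepest colours are those of Dppa5a in the young libraries, at 1.83 and 1.55 above the median.

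The NLRP genes encode leucine-rich repeat proteins, several of which are expressed mainly in oocytes and early embryos. Nlrp2, which associates with the complex, had 48.8, 90.6 and 87.5 CPM in rapamycin oocytes, 112 and 123 CPM in aged oocytes and 101 and 87.6 CPM in young oocytes. Aged libraries were above all others, by little. Without rapamycin 1 the log2 fold change was 0.31 ± 0.24 in aged against young oocytes (edgeR adjusted p = 0.401) and −0.38 ± 0.24 in rapamycin against aged oocytes (edgeR adjusted p = 0.467). With all libraries these were 0.32 ± 0.42 and −0.63 ± 0.38, and rapamycin against young oocytes gave −0.32 ± 0.38 with all libraries and −0.07 ± 0.24 without rapamycin 1.

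Nlrp14, known for female infertility when mutated in mice, had 127, 1364 and 1265 CPM in rapamycin oocytes, 1589.8 and 1935 CPM in aged oocytes and 1483 and 1501 CPM in young oocytes. Rapamycin libraries were lowest and aged libraries highest, with no overlap between any pair of groups. Without rapamycin 1 the log2 fold change was 0.24 ± 0.19 in aged against young oocytes (edgeR adjusted p = 0.412). It was −0.41 ± 0.19 in rapamycin against aged oocytes (edgeR adjusted p = 0.337) and in rapamycin against young oocytes −0.17 ± 0.19 (edgeR adjusted p = 0.714). Including rapamycin 1, the values were 0.24 ± 0.87 in aged against young, −0.94 ± 0.78 in rapamycin against aged and −0.70 ± 0.78 in rapamycin against young oocytes. In rapamycin 2 and 3, 6 of the 10 genes (Nlrp5, Tle6, Zbed3, Padi6, Nlrp2 and Nlrp14) lay below both aged libraries, beside 22.6% of all genes. Another 3 (Ooep, Npm2 and Dppa5a) lay above both, beside 23.2% of all genes, and edgeR called none of these differences. Nlrp2 lies on chromosome 7 from 5298547 to 5351035 of GRCm38, where Gm5065 and Gm18757 overlap it on the other strand, and Nlrp14 on the same chromosome from 107166990 to 107198102.

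Nlrp4f, whose product is also found with the complex, differed between aged and young oocytes in the same direction as Padi6. It had 3774, 2620 and 2202 CPM in rapamycin oocytes, 2419 and 2916 CPM in aged oocytes and 1426 and 1084 CPM in young oocytes. All 5 libraries from 48-week females, rapamycin 1 among them, were above both young libraries, and rapamycin and aged libraries overlapped. Aged oocytes averaged 2667 ± 351 CPM and young oocytes 1255 ± 242 CPM (SD, n = 2 each), a ratio of 2.13. Without rapamycin 1, Nlrp4f rose in aged against young oocytes by 1.08 ± 0.21 on the log2 scale (edgeR adjusted p = 0.0160) and in rapamycin against young oocytes by 0.95 ± 0.21 (edgeR adjusted p = 0.0435). Rapamycin against aged oocytes gave −0.13 ± 0.21 without rapamycin 1 (edgeR adjusted p = 0.791) and 0.10 ± 0.34 with it (edgeR adjusted p = 0.942).

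With all libraries the fold change of Nlrp4f was 1.09 ± 0.38 in aged against young oocytes (edgeR adjusted p = 0.334) and 1.19 ± 0.35 in rapamycin against young oocytes (edgeR adjusted p = 0.347). Leaving out rapamycin 1 changed the error more than the size. The ratio of Nlrp4f to Nlrp5 counts was 35.6, 9.41 and 8.15 in rapamycin oocytes, 6.60 and 9.61 in aged oocytes and 2.96 and 2.80 in young oocytes. Nlrp4f lies on chromosome 13 from 65177111 to 65205977 of GRCm38, and 97.6% of its 75-base words occur in no other gene.

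Other NLRP genes of the oocyte were taken from a list of 9, of which 8 were counted and tested. Without rapamycin 1, 2 of the 8 rose in aged against young oocytes and in rapamycin against young oocytes, and none fell. These were Nlrp4g and Nlrp4e. Of all genes, 11.4% were called in the former comparison and 2.97% in the latter. The median log2 fold change of the 8 in aged against young oocytes was 0.03, beside −0.03 for all genes. Nlrp4g had 723, 481 and 473 CPM in rapamycin oocytes, 630.1 and 659 CPM in aged oocytes and 137 and 111 CPM in young oocytes. Nlrp4e had 623, 417 and 309.5 CPM in rapamycin oocytes, 245 and 348 CPM in aged oocytes and 152 and 134 CPM in young oocytes. For both, as for Nlrp4f, every 48-week library was above both young libraries.

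Without rapamycin 1, Nlrp4g rose by 2.37 ± 0.22 in aged against young oocytes (edgeR adjusted p = 0.000430) and by 1.96 ± 0.21 in rapamycin against young oocytes (edgeR adjusted p = 0.00135). Nlrp4e rose by 1.05 ± 0.26 (edgeR adjusted p = 0.0352) and 1.36 ± 0.26 (edgeR adjusted p = 0.0264) in the same comparisons. With all libraries neither was called, and the value for Nlrp4g in aged against young oocytes was 2.38 ± 0.38 (edgeR adjusted p = 0.0683). Nlrp4a, Nlrp4b and Nlrp4c were not called in any comparison, and Nlrp4a gave 0.16 ± 0.21 in aged against young oocytes (edgeR adjusted p = 0.625). Nlrp4g is annotated as a transcribed pseudogene on chromosome 9, Nlrp4e lies on chromosome 7 and Nlrp4f on chromosome 13, so the 3 genes are not neighbours. Nlrp4g shares 1.55% of the 75-base words of Nlrp4f, and Nlrp4e shares 0%. The part that reads shared by Nlrp4f and Nlrp4g play in these values was not tested.

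**Figure D4:**
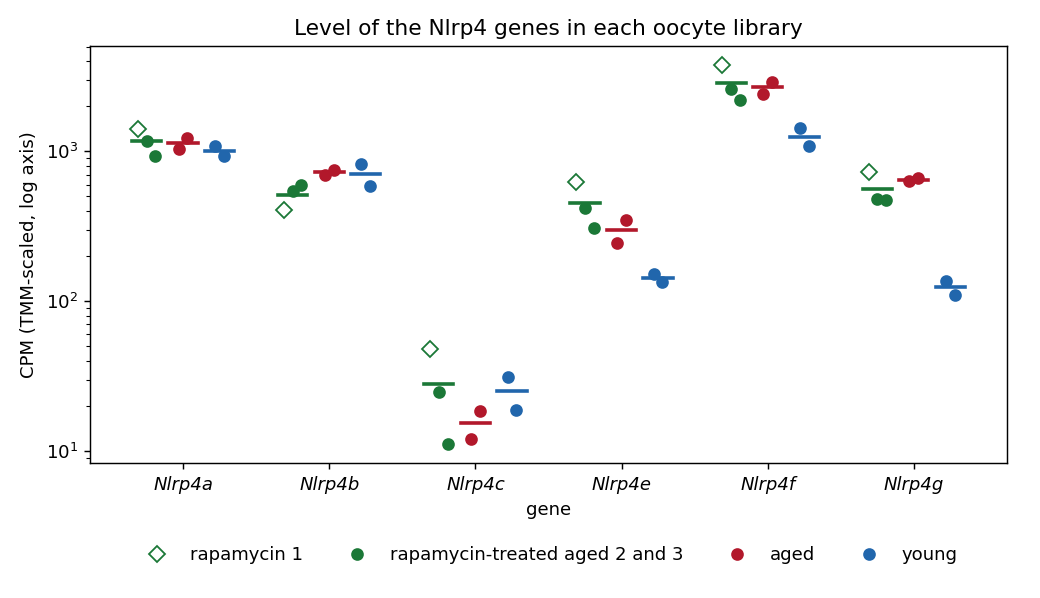
Level of Nlrp4f and 5 related Nlrp4 genes in each oocyte library, in CPM on a log axis, with rapamycin, aged and young oocytes from left to right and a bar at each group's mean. For Nlrp4e, Nlrp4f and Nlrp4g all 5 libraries from 48-week females lie above both young libraries, while Nlrp4a, Nlrp4b and Nlrp4c show no such order.

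Promoter sequences from RefSeq on GRCm38.p6 cover 7 of the 10 genes, as 11 windows of 300 bases around annotated starts. Nlrp14, Npm2 and Dppa5a, the last called without rapamycin 1, had no entry. Those of Padi6 and Nlrp4f are printed because both genes rose in aged oocytes without rapamycin 1. Those of Ooep and Nlrp2 are printed beside them as genes that were not called. Capitals mark matches on either strand to CANNTG, the E-box bound by helix-loop-helix factors such as the oocyte factor Figla, and to TAATTG or TAATTA, searched as sites of the kind bound by homeodomain factors. The other letters are in lower case, 5′ to 3′ on the strand of the gene.
Padi6, chr4:140742594-140742893, minus strand: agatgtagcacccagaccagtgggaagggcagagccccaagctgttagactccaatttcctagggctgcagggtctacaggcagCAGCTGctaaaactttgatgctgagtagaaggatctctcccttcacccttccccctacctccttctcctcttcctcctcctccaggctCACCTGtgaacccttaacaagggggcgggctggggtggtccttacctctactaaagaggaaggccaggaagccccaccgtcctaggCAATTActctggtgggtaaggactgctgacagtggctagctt
Nlrp4f, chr13:65205667-65205966, minus strand: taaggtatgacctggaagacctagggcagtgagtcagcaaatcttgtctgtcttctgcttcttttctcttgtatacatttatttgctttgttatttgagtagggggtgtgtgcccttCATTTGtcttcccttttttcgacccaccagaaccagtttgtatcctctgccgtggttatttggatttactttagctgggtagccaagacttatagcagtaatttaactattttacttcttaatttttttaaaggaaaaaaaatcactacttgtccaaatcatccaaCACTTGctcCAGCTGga
Ooep, chr9:78378539-78378838, minus strand: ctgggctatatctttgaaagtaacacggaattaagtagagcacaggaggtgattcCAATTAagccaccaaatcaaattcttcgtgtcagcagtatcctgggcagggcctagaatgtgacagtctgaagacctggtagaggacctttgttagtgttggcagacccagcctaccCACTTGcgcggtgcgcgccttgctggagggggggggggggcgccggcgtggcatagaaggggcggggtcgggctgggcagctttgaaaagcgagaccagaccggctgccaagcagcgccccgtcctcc
Nlrp2, chr7:5350986-5351285, minus strand: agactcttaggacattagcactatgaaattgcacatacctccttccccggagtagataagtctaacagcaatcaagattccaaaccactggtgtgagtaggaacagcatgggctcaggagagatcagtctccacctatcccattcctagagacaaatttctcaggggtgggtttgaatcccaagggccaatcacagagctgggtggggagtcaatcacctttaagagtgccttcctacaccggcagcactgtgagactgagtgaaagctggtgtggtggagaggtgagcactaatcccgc

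The Padi6 promoter held 2 matches to CANNTG and 1 to TAATTG, and the Nlrp4f promoter 3 to CANNTG. The Ooep promoter held 1 match to CANNTG and 1 to TAATTG, and the Nlrp2 promoter 0 matches to any of the 3 motifs. Every window of Nlrp5, Tle6 and Zbed3, which were not called and are not printed, held CANNTG. Of 32851 mouse promoters of 300 bases, 72.3% held CANNTG, 8.00% TAATTG and 5.29% TAATTA. An E-box is thus common in promoters of this length, and its presence in Padi6, Nlrp4f and Ooep does not set called from uncalled genes apart. The matches describe letters in these windows and are not evidence of binding.

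Npm2, or nucleoplasmin, a histone chaperone that organises oocyte and zygote chromatin, had 156, 714 and 560.3 CPM in rapamycin oocytes, 207 and 507 CPM in aged oocytes and 486 and 481 CPM in young oocytes. The aged libraries differed from each other more than from the young ones, and aged 1 stood closer to rapamycin 1 than to aged 2. Without rapamycin 1 the log2 fold change was −0.43 ± 0.36 in aged against young oocytes (edgeR adjusted p = 0.442). Rapamycin against aged oocytes gave 0.84 ± 0.36 (edgeR adjusted p = 0.310) and rapamycin against young oocytes 0.41 ± 0.36 (edgeR adjusted p = 0.638). All 7 libraries together gave −0.44 ± 0.70 in aged against young, 0.42 ± 0.64 in rapamycin against aged and −0.02 ± 0.64 in rapamycin against young oocytes. Without rapamycin 1 and aged 2, Npm2 gave −1.25 in aged against young oocytes and 1.67 in rapamycin against aged oocytes. Aged 1 was then the only aged library. Npm2 lies on chromosome 14 from 70647302 to 70659244 of GRCm38, where it overlaps Xpo7 on the same strand.

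Dppa5a, a KH-domain RNA-binding protein of pluripotent cells and relative of Ooep, was the least abundant of the 10 genes in counts. It had 24, 129 and 147 counts in rapamycin oocytes, 28 and 58 in aged oocytes and 314 and 482 in young oocytes. As levels these were 6.43, 19.2 and 22.1 CPM in rapamycin oocytes, 7.53 and 13.0 CPM in aged oocytes and 68.3 and 55.9 CPM in young oocytes. Both young libraries were above all 5 libraries of 48-week females, and rapamycin and aged libraries overlapped. Aged oocytes averaged 10.3 ± 3.87 CPM and young oocytes 62.1 ± 8.72 CPM (SD, n = 2 each), which is 6.05-fold lower in aged oocytes. The rapamycin mean with all 3 libraries was 15.9 ± 8.32 CPM (SD, n = 3), 3.91-fold lower than in young oocytes.

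Without rapamycin 1, Dppa5a fell by 2.59 ± 0.37 on the log2 scale in aged against young oocytes (edgeR adjusted p = 0.00509) and by 1.58 ± 0.34 in rapamycin against young oocytes (edgeR adjusted p = 0.0411). With all libraries the fold changes were −2.59 ± 0.65 (edgeR adjusted p = 0.236) and −1.95 ± 0.55 (edgeR adjusted p = 0.309). Rapamycin against aged oocytes gave 1.01 ± 0.36 without rapamycin 1 (edgeR adjusted p = 0.242) and 0.64 ± 0.58 with it (edgeR adjusted p = 0.780). DESeq2 with all libraries called 288 genes in aged against young oocytes, Dppa5a among them. Dppa5a lies on chromosome 9 from 78367052 to 78368177 of GRCm38, 7931 bases from Ooep and on the same strand. Ooep gave −0.13 ± 0.27 in the comparison where its neighbour fell. Of the 75-base words of Dppa5a, 80.6% occur in no other gene, and 6 other genes share the rest, so its counts are less certain than those of the other members.

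The calls for Padi6, Nlrp4f and Dppa5a in aged against young oocytes were also made by limma with quality weights on all 7 libraries. They were made too by edgeR on the aged and young libraries alone. Over all genes, the first fit called 836 and the second 1177. These fits use the same aged and young libraries, and the second also leaves out rapamycin 1, so they are not independent support. The main edgeR fit of all 7 libraries called 0 members. Without rapamycin 1, leaving out young 1, young 2 or aged 1 as well removed some or all of the calls for the 3 genes. Each of these fits also called fewer genes over all genes. With libraries left out, 1 or 2 at a time, Padi6 ran from 0.80 to 1.30 on the log2 scale in aged against young oocytes. Nlrp4f ran from 0.93 to 1.30 and Dppa5a from −3.06 to −2.23. In rapamycin against young oocytes, leaving out any further rapamycin or young library removed the calls for Nlrp4f and Dppa5a. Fewer genes were called over all genes there too. With libraries left out, Nlrp4f ran from 0.80 to 1.42 in this comparison and Dppa5a from −2.25 to −1.42. Where a fit leaves a group of 1 library, that group is assumed to vary as the others do.

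Other genes of the pathway were read in aged against young oocytes without rapamycin 1, where 11.4% of all genes were called. Of 7 KH-domain neighbours and partners of the complex, 0 rose and 1 fell, Khdc1a, at −1.64 ± 0.46 (edgeR adjusted p = 0.0499). The core subunit Khdc3 (FILIA) had 18.2, 40.4 and 45.7 CPM in rapamycin oocytes, 41.1 and 46.2 CPM in aged oocytes and 40.0 and 29.7 CPM in young oocytes. Outside rapamycin 1 its range was narrow, and it gave 0.32 ± 0.29 in aged against young oocytes (edgeR adjusted p = 0.480). The median of the 7 genes was 0.26, beside −0.03 for all genes.

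Of 34 other maternal-effect genes, 32 were tested. In aged against young oocytes without rapamycin 1, 3 rose and 3 fell, where 11.4% of all genes were called. The pluripotency factor Pou5f1 rose by 1.58 ± 0.33 (edgeR adjusted p = 0.0195), the adhesion protein Cdh1 by 1.35 ± 0.31 (edgeR adjusted p = 0.0282) and the DNA methyltransferase Dnmt1 by 1.05 ± 0.25 (edgeR adjusted p = 0.0318). The splicing factor Bcas2 fell by 1.21 ± 0.25 (edgeR adjusted p = 0.0186) and the deadenylase subunit Cnot6l by 0.83 ± 0.23 (edgeR adjusted p = 0.0486). Dppa3, which shields the maternal genome from demethylation, fell by 1.02 ± 0.22 (edgeR adjusted p = 0.0215). The median of the 32 genes was −0.25. In rapamycin against young oocytes 1 of the 32 was called, where 2.97% of all genes were. This was Bcas2, which fell by 1.51 ± 0.25 (edgeR adjusted p = 0.0139). In rapamycin against aged oocytes 0 of the genes in these lists were called, and 0 in any comparison with all 7 libraries.

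Of the oocyte markers, 1 of 14 was called in aged against young oocytes without rapamycin 1, where 11.4% of all genes were. This was Fbxo43 (Emi2), an inhibitor of the anaphase-promoting complex, which rose by 0.84 ± 0.21 (edgeR adjusted p = 0.0362). Of the cumulus and granulosa markers, 0 of the 7 tested were called there. In rapamycin against young oocytes 1 of these 7 was called, where 2.97% of all genes were. This was the aromatase gene Cyp19a1, which fell by 1.39 ± 0.28 (edgeR adjusted p = 0.0306).

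The genes most like a member were ranked among 3731 genes averaging 5 log2 CPM or more, by the smaller of Pearson's r of log2 CPM over the 7 libraries and over the 6 without rapamycin 1. The values describe these libraries and carry no p. All genes of a library share its preparation and depth. Each r printed is among the highest of 3731 over few libraries, and so is high by selection. Most like Nlrp5 were Ahsa1 (r = 0.986), Atg12 (r = 0.972) and Adam17 (r = 0.972). Most like Npm2 were Cdk11b (r = 0.967), Acp1 (r = 0.962) and Taf1a (r = 0.958). Most like Dppa5a were Plekha3 (r = 0.988), Slf1 (r = 0.987) and Polr2j (r = 0.977). Polr2j, a subunit of RNA polymerase II, had 81.0, 116 and 124 CPM in rapamycin oocytes, 78.5 and 108 CPM in aged oocytes and 313 and 223 CPM in young oocytes. Its young libraries were above all others, as for Dppa5a, a likeness by which the gene was picked.

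Across tissues, most of the 10 genes were seen in oocytes and hardly or not at all in hippocampus. Tissue and library kit cannot be told apart in this comparison. Hippocampus libraries held 16434398 to 20220617 counts, and a floor of 3 counts over the 10 libraries stood at 0.0165 CPM. Ooep, Padi6, Nlrp14 and Dppa5a had 0 counts in all 10. Against that floor, oocyte means were at least 30567-fold higher for Ooep, 78978-fold for Padi6, 80030.1-fold for Nlrp14 and 1662-fold for Dppa5a. Without rapamycin 1 these bounds were 35377, 88744, 92090.4 and 1874. Nlrp2 had 1 count and Nlrp5 2 counts over the 10 libraries, Nlrp4f 9 and Npm2 31.

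Tle6 and Zbed3 were the members with counts in every hippocampus library. Tle6 had 10 to 42 counts, with a median of 1.25 CPM, and the oocyte median of 200.1 CPM was 161 times that (194 times without rapamycin 1). Zbed3 had 178 to 246 counts and 10.4 to 14.1 CPM in hippocampus, and its oocyte median of 27367 CPM was 2349 times the hippocampus median (2243 times without rapamycin 1). These 2 members were thus lower in hippocampus but not limited to oocytes.

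**Figure D5:**
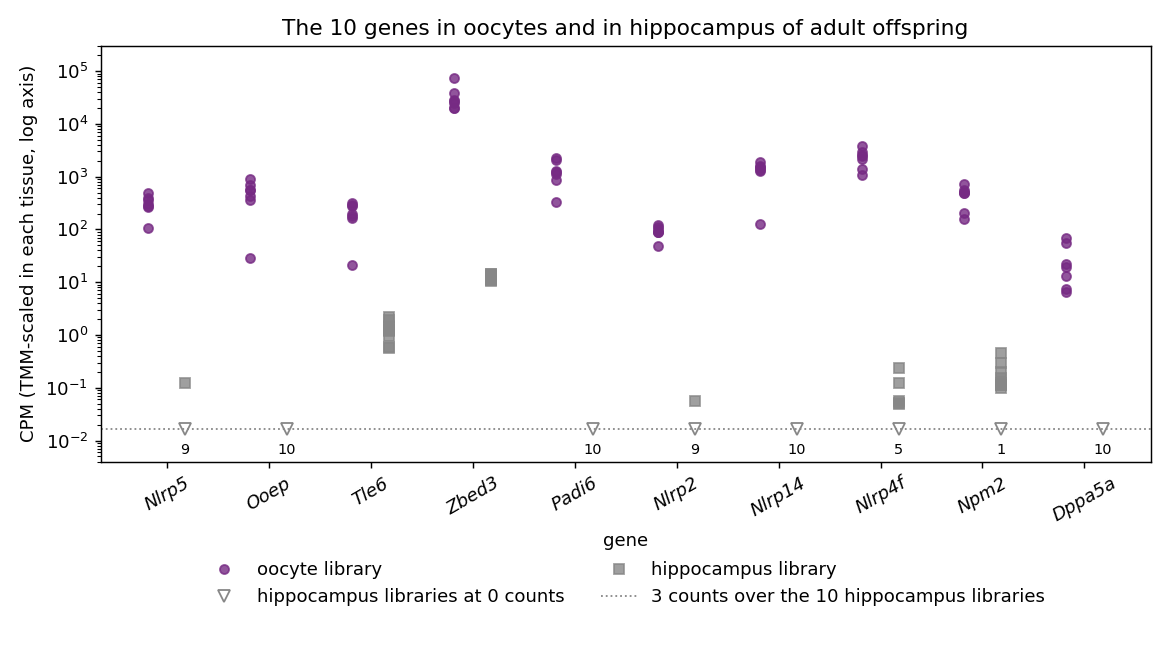
Level of each of the 10 genes in the 7 oocyte libraries (purple circles, left) and the 10 hippocampus libraries (grey squares, right), in CPM on a log axis. Triangles on the dotted line of 3 counts mark libraries at 0 counts, with their number below. Ooep, Padi6, Nlrp14 and Dppa5a are at 0 in all 10 hippocampus libraries, and Zbed3 has the highest hippocampus level at 10.4 to 14.1 CPM.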

How the data were processed

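The deposited files hold counts of reads per gene for each library, with no normalization by the authors. Per the submitters' processing notes, STAR, HTSeq and the mm10 build were used. The sources used here do not give versions, annotation or strand setting, and reads of overlapping genes could not be told apart. The 5 summary rows that name no gene were kept out. As shares of gene counts and summary rows together, reads outside genes came to 6.09% to 9.32% in oocyte libraries. Reads without a unique position came to 10.0% to 15.9% and ambiguous reads to 1.26% to 1.48%.

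The 3 oocyte groups were fitted together with edgeR 4.0.16 in R 4.3.3 (filterByExpr, TMM scaling, quasi-likelihood F-test, Benjamini-Hochberg adjustment over all genes tested, threshold 0.05), after the code was tested on simulated data. Levels are CPM as mean ± SD, and errors of log2 fold changes are SE. Alternatives used DESeq2 1.42.0, limma 3.58.1 and the settings described at the end. A floor of 3 counts was 0.348 to 0.806 CPM per oocyte library and covers counting error only. Transcripts and positions came from GENCODE M21 on GRCm38.

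All 10 members are named, with up to 4 genes of smallest unadjusted p from each of 6 lists and the 3 genes most like each of Nlrp5, Npm2 and Dppa5a. Other genes were named after their values were seen. The members, the lists and the fits without rapamycin 1 were chosen with earlier results of these data known. The series' design text speaks of 9 oocyte samples, and 7 were analysed here. Nothing in the labels ties the libraries of a group to separate animals. The p-values therefore rest on the spread among these libraries alone, and part of it may be technical.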

Additional observations from a re-analysis of the deposited data

Results flagged for a closer look

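In the hippocampus of offspring of young mothers, Zbed3 had 11.6, 14.1, 11.1 and 11.3 CPM in 4 libraries. The second lay apart from the rest: its gap to the nearest value was 0.850 of the whole range, above the 95% critical value of Dixon's test for 4 values. Chance gives such a value in about 1 of 20 groups, and the hippocampus groups are not compared with each other here. This library is part of the hippocampus median of Zbed3 that is set beside oocytes above.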

How the results depend on the processing

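The fit of all 7 libraries called 27 genes in aged against young oocytes, 0 in rapamycin against aged and 43 in rapamycin against young oocytes, and 0 members in each. In aged against young oocytes the number of genes was 167 with no low-count filter, 1177 with only the 2 groups compared, 288 with DESeq2, 836 with limma quality weights and 17 with libraries thinned to the smallest, and 0 to 1851 with libraries left out. Members called there were 1 with no filter and with DESeq2 (Dppa5a), 3 with only the 2 groups and with quality weights, and 0 to 4 with libraries left out. Rapamycin against aged oocytes gave 11 genes with no filter, 11 with DESeq2, 3 with quality weights and 0 to 270 with libraries left out, with 0 to 1 members. Rapamycin against young oocytes gave 179 genes with no filter, 14 with only the 2 groups, 243 with DESeq2, 526 with quality weights and 0 to 527 with libraries left out. Members there were 2 with quality weights and 0 to 2 with libraries left out.

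Samples sharing a replicate number showed little shared deviation (r from −0.10 to 0.01). In groups of 2 libraries the deviations mirror each other, so these values cannot show that pairing is absent. The labels name no pairs, and the numbers were not taken as pairs. With a replicate block, 1 gene was called in aged against young oocytes and 0 in rapamycin against young oocytes, and Ooep turned to −1.12 in rapamycin against aged and −1.32 in rapamycin against young oocytes. Without rapamycin 1 the block called 1410, 89 and 301 genes and 3, 0 and 0 members, for aged against young, rapamycin against aged and rapamycin against young oocytes.

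Directions turned for members that were not called. With quality weights these were Zbed3 (−0.44) and Nlrp4f (−0.10) in rapamycin against aged oocytes, and Padi6 (0.12) and Npm2 (0.35) in rapamycin against young oocytes. Npm2 in rapamycin against young oocytes also gave 0.022 with no filter, 0.011 with a filter of 10 CPM and 0.014 with total count scaling. With libraries left out, 1 or 2 at a time, aged against young oocytes ran from −0.50 to 0.17 for Ooep and −1.25 to 0.090 for Npm2. Rapamycin against aged oocytes ran from −0.33 to 1.21 for Ooep, −0.72 to 0.64 for Zbed3, −0.28 to 0.29 for Nlrp4f and −0.10 to 1.67 for Npm2. Rapamycin against young oocytes ran from −0.47 to 0.94 for Ooep, −0.28 to 1.08 for Zbed3, −0.54 to 0.44 for Padi6, −0.46 to 0.045 for Nlrp2 and −0.43 to 0.60 for Npm2. The cause was not tested. Padi6, Nlrp4f and Dppa5a kept their direction in aged against young oocytes under all 28 alternatives and were called under 10, 11 and 14 of them. Total count scaling and the fits that leave out rapamycin 1 together with another change were chosen after seeing the data. All 28 alternatives share libraries, so the number of calls among them is not independent support. Total count scaling without rapamycin 1 moved the median of all genes by 0.12 in rapamycin against aged oocytes.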
